A study of Pan troglodytes with 50 samples.

Results

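The permutation library at stage N2 was read in 6 of the 50 samples of the series, 3 RNA and 3 DNA samples chosen by their titles. The library holds 1049 elements, of which 768 are versions of 7 human accelerated regions (HARs), 16 are tiles of the enhancer HARE5 and 265 are controls. All 6 samples came from Pt2A, a chimpanzee induced pluripotent stem cell (iPSC) line turned into neural progenitors that the labels assign to the telencephalon. Each of 3 cultures was infected with the lentiviral library and harvested after 4 days, and DNA and RNA were extracted from the same cells. The labels give no genetic change or drug beside the reporter, so the only contrast within the 6 samples is RNA against DNA. The 3 cultures are separate infections of 1 line, and reporter counts measure no gene of the cells, so the labelled cell type was not checked here.

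HARs are stretches of DNA that stayed nearly the same across mammals and then gathered many substitutions on the human lineage. Many are thought to act as enhancers, DNA that raises transcription of a gene at a distance, and many lie near genes of brain development. A lentiviral reporter assay puts each candidate sequence beside a minimal promoter, integrates it into the genome and counts a transcribed barcode. RNA barcode counts divided by DNA barcode counts then measure how much transcript each integrated copy gives. HARE5 is an enhancer near FZD8, a receptor of the Wnt pathway, and the human version is known for stronger activity than the chimpanzee version in developing mouse cortex.

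For each of the 7 HARs the library combines the human and the chimpanzee base at 3 to 9 sites in every possible way, on a background of 171 bases. The bases at these sites define a variant and are shown because the results below turn on them. The letters are not neighbours in the DNA. They are the bases at the variable sites only, in the order of their positions, with lower case for the chimpanzee base and capitals for the human base.
2xHAR.1, all chimpanzee: gacaagggc
2xHAR.1, all human: TTTTGCACG
2xHAR.1, highest variant: gTTTaggCc
2xHAR.1, lowest variant: TaTaGgAgG
2xHAR.142, all chimpanzee: acgtata
2xHAR.142, all human: GTTCGCG
2xHAR.142, highest variant: GTgtata
2xHAR.142, lowest variant: GcgCGta
2xHAR.164, all chimpanzee: tttt
2xHAR.164, all human: ACCC
2xHAR.170, all chimpanzee: ctt
2xHAR.170, all human: TGC
2xHAR.238, all chimpanzee: agaac
2xHAR.238, all human: GAGGT
2xHAR.238, highest variant: agaaT
2xHAR.65, all chimpanzee: agaag
2xHAR.65, all human: GAGCC
HAR34, all chimpanzee: ttc
HAR34, all human: CCG
In 2xHAR.1 the sites are G33T, A36T, C55T, A88T, A94G, G95C, G110A, G117C and C119G, written as chimpanzee base, position in the element as its name gives it, and human base. The names do not say whether counting starts at 0 or 1. The HARs lie, in human build GRCh37 (hg19), at chrX:137793421-137793604 (2xHAR.1), chr14:34048648-34048818 (2xHAR.142), chr2:133346944-133347114 (2xHAR.164), chr5:153640253-153640423 (2xHAR.170), chr2:121832888-121833059 (2xHAR.238), chr21:17828743-17828913 (2xHAR.65) and chr9:13751064-13751234 (HAR34). 2xHAR.142 lies within NPAS3, a neuronal transcription factor gene, and 2xHAR.238 lies near GLI2, a transcription factor of Hedgehog signalling.

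The library was read deeply. The 3 RNA samples held 15863960 to 26670905 counts and the 3 DNA samples 35588410 to 44149144 counts, over 99513 barcodes. An element had 44 to 100 barcodes, with a median of 96. The smallest summed count of any element was 1466 in an RNA sample and 4046 in a DNA sample, so no element had low counts. Activity is given as log2 of RNA over DNA per culture, with 0 set at the median of 120 negative controls, which are regions named for ENCODE negatives and for the repressive mark H3K27me3. An element was called where both the edgeR quasi-likelihood test over libraries and a z test with the spread between barcodes as error passed in the same direction, each at a Benjamini-Hochberg adjusted p under 0.05. Activity correlated between cultures at r = 0.886, 0.931 and 0.928 over the 1049 elements, which share their DNA pool and base composition.

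The DNA samples of N2 stood apart from those of N3, the later stage at which the same library was read in 3 RNA and 3 DNA samples of the same line. Both stages carry the same barcodes, and 295 of 1049 elements had a higher share of N2 DNA than of N3 DNA relative to the negative controls. The SD over elements of log2 N2 DNA over the mean N3 DNA was 0.095, 0.18 and 0.12 in cultures 1, 2 and 3. The SD of the activities themselves was 0.12, 0.19 and 0.15, so culture 2 was the widest in both. Activities and calls below are therefore given with the N2 DNA, the denominator of the same cultures, and the main ones again with the N3 DNA. The 2 ratios share the N2 RNA samples and are not independent of each other. Cultures correlated at r = 0.977, 0.971 and 0.972 over the N3 DNA. There the mean of the 3 N3 DNA samples is the shared denominator of all cultures. These r, and the SDs of element values over the N3 DNA, therefore hold no spread of the DNA and are not comparable with those over the N2 DNA. What set the N2 and N3 DNA apart was not tested.

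**Figure D1:**
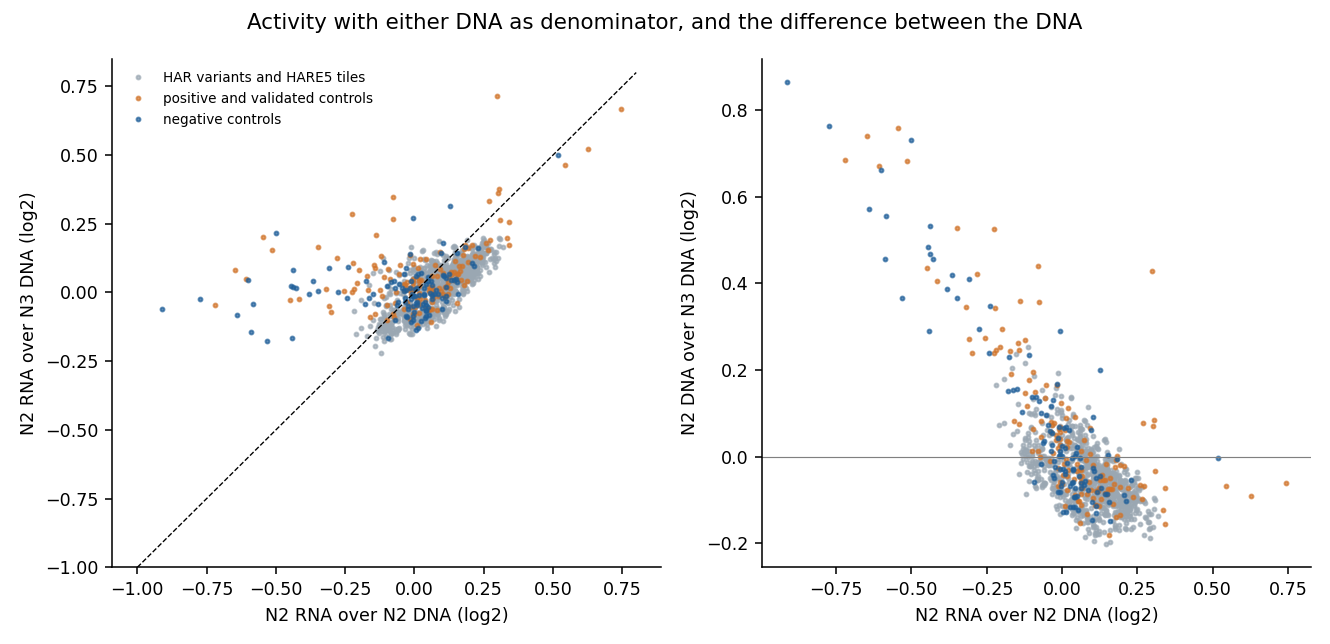
Left, activity of each element with the N2 DNA (horizontal) and with the N3 DNA (vertical). Right, the log2 N2 DNA over N3 DNA of each element against its activity with the N2 DNA. Each point is 1 element, as the mean of 3 cultures on a log2 scale with 0 at the median of the negative controls. Colours are HAR or HARE5, positive control and negative control. The class of 4 controls that mixes positives and negatives has the colour of the positive controls. The dashed line marks equal values. The 6 lowest elements on the horizontal axis, between -0.91 and -0.61, lie between -0.081 and 0.080 with the N3 DNA.

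Activity was modest. 2xHAR.1, which makes up 512 of the 1049 elements, held 304 of the elements called higher with the N2 DNA and 6 of those called lower. With the N2 DNA, 402 of 1049 elements (38.3%) were called higher than the median of the negative controls and 95 (9.06%) lower. The N3 DNA gave 256 (24.4%) higher and 124 (11.8%) lower. Both denominators called 193 elements (18.4%) higher and 36 (3.43%) lower. The tests took the median of the negative controls as a fixed value and left out their spread. With the N2 DNA the 120 negative controls ran from -0.91 to 0.52, with an SD of 0.22. By the same tests 10.0% of them were called higher and 21.7% lower. The counts over all elements moved with the zero point, since the median of the negative controls lies at -0.094 relative to the TMM centre of all elements. Against that centre 84 elements were called higher and 219 lower.

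The N2 DNA is the denominator of the calls, so elements called lower lean to high N2 DNA and those called higher to low N2 DNA in part by how they were chosen. Of the 95 elements called lower, 83 had more N2 DNA than N3 DNA relative to the negative controls, with a median difference of 0.19 on the log2 scale. Their median activity was -0.17 with the N2 DNA and -0.042 with the N3 DNA, and 36 of them changed sign. Of the 402 called higher, 13 had more N2 DNA than N3 DNA. Their median activity was 0.18 with the N2 DNA and 0.086 with the N3 DNA, and 22 changed sign.

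The HARs ranked differently from each other. 2xHAR.1 had a median activity of 0.14 over its 512 variants, with medians of 0.13, 0.15 and 0.15 in the 3 cultures. Of these variants 304 were called higher and 6 lower, and both denominators called 149 higher and 0 lower. Against the TMM centre, the 2xHAR.1 variants split into 58 higher and 21 lower. 2xHAR.142 lay below the median of the negative controls, with a median of -0.069 over 128 variants and of -0.054, -0.098 and -0.062 in the cultures. None of its variants was called higher, 35 were called lower with the N2 DNA and 86 with the N3 DNA, and both denominators called 32 lower. The shares over all elements were 38.3% higher and 9.06% lower with the N2 DNA. Of the 2xHAR.142 variants 27.3% were called lower with the N2 DNA, beside 21.7% of the negative controls. With the N3 DNA these shares were 67.2% and 7.5%, beside 11.8% over all elements.

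The other sets were smaller. 2xHAR.238 had a median of 0.15 over 32 variants, with 21 called higher, 11 of them by both denominators. 2xHAR.170 had a median of 0.17 over 8 variants, with 4 called higher and 2 by both denominators. Both sets kept a median above 0 with the N3 DNA, at 0.070 and 0.033. The sign of the median of the other sets turned with the denominator. 2xHAR.164 (16 variants) went from 0.038 to -0.080, HAR34 (8 variants) from 0.070 to -0.026, and the first and second tile of 2xHAR.65 (32 variants each) from 0.10 to -0.069 and from 0.067 to -0.074. No variant of those 4 sets was called higher by both denominators.

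**Figure D2:**
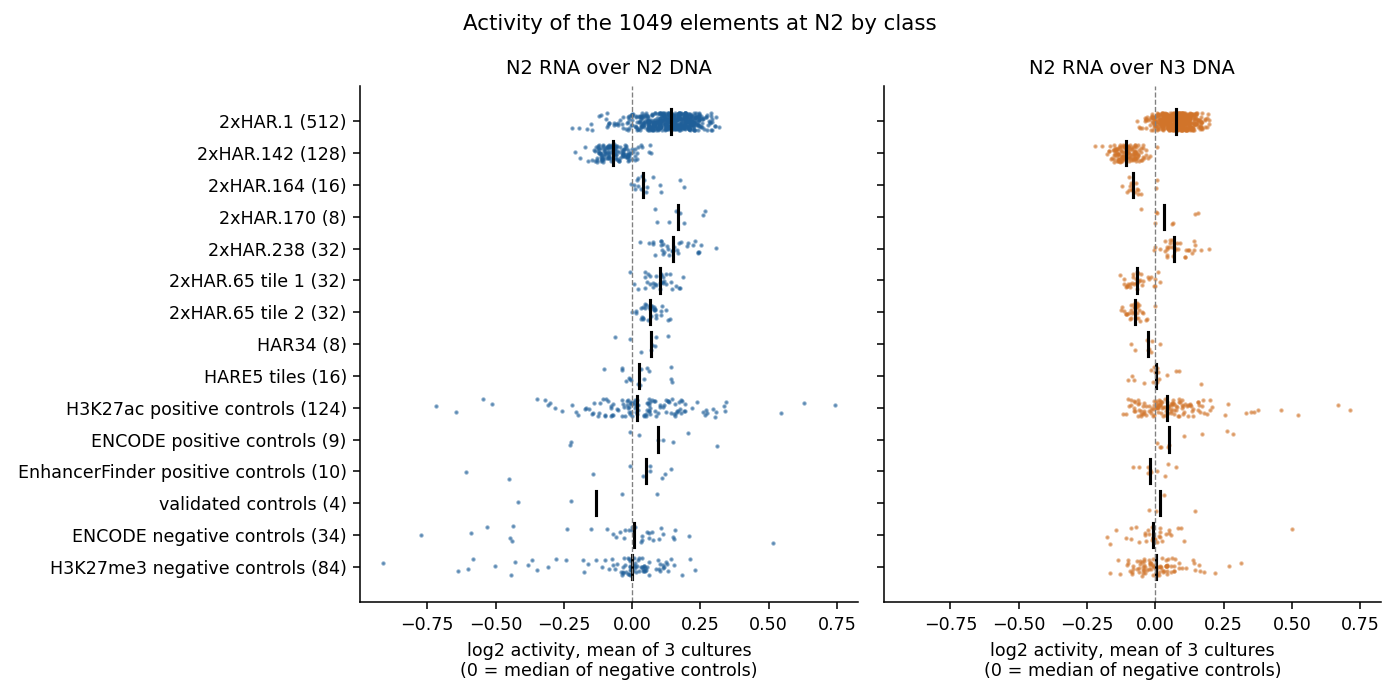
Activity (log2 RNA over DNA, 0 = median of the negative controls, mean of 3 cultures) by element class, with the N2 DNA on the left and the N3 DNA on the right, 1 point per element, the class median as a black line and the number of elements in brackets. With the N2 DNA, 2xHAR.1 has a median of 0.14 and 2xHAR.142 of -0.069, and the H3K27ac controls run from -0.72 to 0.74.

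The median of the H3K27ac positive controls lay below that of 2xHAR.1. The 124 regions named for H3K27ac, a mark of active enhancers and promoters, had a median of 0.019 with the N2 DNA and 0.042 with the N3 DNA. Of these, 37 (29.8%) were called higher and 21 (16.9%) lower, beside 38.3% and 9.06% over all elements. Both denominators called 24 (19.4%) higher and 0 lower, beside 18.4% and 3.43% over all elements. The 120 negative controls had 12 (10.0%) called higher and 26 (21.7%) lower, or 5 and 3 by both denominators. The 9 ENCODE positive controls had a median of 0.096 with 4 higher and 2 lower, and the 10 EnhancerFinder regions 0.051 with 1 higher and 3 lower. A last class of 4 controls, named as 2 positives and 2 negatives, had -0.13 with 0 higher and 2 lower. Its 2 negatives are also among the 120 negative controls. Among those 4, brain_vista_pos_ctrl10 was at 0.092 ± 0.033 (SD, n = 3) and was not called, and ENCODE_pos_ctrl5 was called lower at -0.22 ± 0.13 with the N2 DNA but lay at 0.0012 with the N3 DNA. Without culture 2, ENCODE_pos_ctrl5 was at -0.16 and lost its call.

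With the N2 DNA, a few H3K27ac regions gave the highest activity of the library. H3K27ac positive control 11 (chr11:133907201-133907371) was at 0.65, 0.72 and 0.86 in the 3 cultures, 0.74 ± 0.11 (SD, n = 3; edgeR adjusted p = 1.16e-09, barcode adjusted p = 6.18e-45). Its RNA was at 1246, 1276 and 1333 CPM (counts scaled to library size) and its N2 DNA at 819, 799 and 763 CPM. Its N3 DNA was at 811, 794 and 831 CPM, close to the N2 DNA, and its activity with the N3 DNA was 0.67. RNA exceeded DNA in all 3 cultures with no overlap. Over the N3 DNA another region, N1_N2_AP_K27ac_POSITIVE_CONTROL 130 (chr10:98900001-98900171), was higher than this one, at 0.71 ± 0.063 (SD, n = 3). It was named after its values were seen. With the N2 DNA it was at 0.38, 0.12 and 0.39, lowest in culture 2, and it was called higher with either DNA.

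The barcodes of H3K27ac positive control 11 varied widely around its activity. It had 96 barcodes, of which 89 had at least 100 DNA counts over the 3 cultures. Their median log2 ratio was 0.69, with quartiles of 0.39 and 1.02, and 87 of 89 lay above 0. The median over the N3 DNA was 0.66, with quartiles of 0.42 and 0.82, and 86 of 89 lay above 0. The extremes are printed because they carry the range of the measurement.
lowest barcode: aatgcgagaccatcg
second lowest barcode: aatagcggcattgag
highest barcode: ggtcgcgtccttcca
second highest barcode: gctggctaccttaga
The lowest, aatgcgagaccatcg, had 1159 RNA and 2791 DNA counts and a ratio of -0.26, or -0.12 with the N3 DNA. The highest, ggtcgcgtccttcca, had 988 RNA and 601 DNA counts and a ratio of 1.72, or 0.89 with the N3 DNA. Over the 89 barcodes the ratios ran from -0.26 to 1.72 with the N2 DNA and from -0.41 to 1.33 with the N3 DNA. What set the barcodes apart was not tested.

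H3K27ac positive control 107 (chr11:44009051-44009221) was at 0.57, 0.67 and 0.64, with a mean of 0.63 ± 0.053 (SD, n = 3) and 0.52 with the N3 DNA. H3K27ac positive control 104 (chr5:107273101-107273271) was at 0.46, 0.58 and 0.59, with a mean of 0.54 ± 0.070 and 0.46 with the N3 DNA. The next in order was a region chosen as a negative, ENCODE negative control 8 (chr2:238336155-238336325), at 0.45, 0.62 and 0.49. Its mean was 0.52 ± 0.088, its N3 DNA value 0.50, and 1 of its 68 barcodes gave 11.7% of its RNA. H3K27ac positive control 107 lay above the other 2 in each culture, while control 104 and the ENCODE region changed places between cultures. In the HAR control library, in which the regions have other barcodes, this ENCODE region was at -0.11 and in the HAR library at 0.65. H3K27ac positive control 104 was at 0.12 and -0.041 there.

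Below these 4 came a group of close values. H3K27ac positive controls 113 (chr20:35482901-35483071), 84 (chr19:50312301-50312471) and 139 (chr22:24553801-24553971) were at 0.34 ± 0.060, 0.34 ± 0.011 and 0.34 ± 0.065 (SD, n = 3), or 0.17, 0.26 and 0.20 with the N3 DNA. ENCODE positive control 3 (chrX:48658980-48659150) was at 0.31 ± 0.025, or 0.26 with the N3 DNA. ENCODE positive control 6 (chr16:163518-163688), in the region upstream of the alpha-globin genes, was at 0.21 ± 0.019, or 0.17 with the N3 DNA. Both of these ENCODE regions were called higher with either denominator. Among the negatives, AP_K27Me3 negative control 27 reached 0.23 ± 0.056 and ENCODE negative control 18 reached 0.21 ± 0.033, and both were called higher with either denominator. N1_K27Me3 negative control 16 reached 0.21 ± 0.068 and was called with the N2 DNA only.

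The 6 lowest elements had N2 DNA above their N3 DNA. N1_K27Me3 negative control 24 (chr19:13091001-13091171) was at -0.65, -1.29 and -0.80, a mean of -0.91 ± 0.33 (SD, n = 3). Its RNA was at 520, 508 and 537 CPM, within a narrow range, while its N2 DNA was at 842, 1280 and 970 CPM. Its N3 DNA was at 541, 558 and 540 CPM, and its activity with the N3 DNA was -0.060. ENCODE negative control 26 moved from -0.77 to -0.025, H3K27ac positive control 6 (chr14:90888901-90889071) from -0.72 to -0.047, and H3K27ac positive control 101 (chr17:17607001-17607171) from -0.65 to 0.080. AP_K27Me3 negative control 12 (chr17:46590201-46590371) moved from -0.64 to -0.081 and EnhancerFinder positive control 9 (chr6:10146001-10146171) from -0.61 to 0.048. All 6 were called lower with the N2 DNA and none with the N3 DNA. The same 6 were at -0.64 to -0.32 in the HAR library and at 0.44 to 0.57 in the HAR control library, both read in this line at N2 with their own DNA.

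Over all 438 elements that the libraries share by name, activity with the N2 DNA correlated at r = 0.860 with the HAR library and at r = -0.0035 with the HAR control library. For activity with the N3 DNA these were r = 0.421 and r = 0.583. The classes differed. With the N2 DNA, r with the HAR library was 0.859 for H3K27ac controls and 0.890 for negative controls. It was lower for HAR variants, at 0.403 in 2xHAR.142 and -0.158 in 2xHAR.238. With the HAR control library r was -0.072, -0.326, -0.00088 and -0.349 in the same order. With the N3 DNA, r was 0.505, 0.270, -0.092 and -0.057 with the HAR library. It was 0.472, 0.329, 0.265 and -0.137 with the HAR control library. The points share sequence but no barcodes, since 0 barcodes were common to the libraries.

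Within 2xHAR.1, the human and the chimpanzee sequence differed by less than their error. The all-chimpanzee variant was at 0.12, 0.064 and 0.12 in the 3 cultures, a mean of 0.10 ± 0.033 (SD, n = 3). The all-human variant was at 0.12, 0.10 and 0.092, a mean of 0.10 ± 0.015. The cultures of both overlap, and the difference was 0.0013 with a barcode SE of 0.080, an error that leaves differences of that size undetectable. The difference was -0.023 over the N3 DNA. Neither was called against the negative controls. By activity they stood at ranks 349 and 342 of 512, or 353 and 418 with the N3 DNA, so most mixed variants lay above both. These ranks are uncertain, since the barcode SE of the 2 elements was 0.057 and 0.055 beside an SD of 0.085 over the 512 variants.

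The range of 2xHAR.1 was set by mixed variants. The highest, gTTTaggCc, was at 0.32, 0.34 and 0.29, a mean of 0.32 ± 0.022 (SD, n = 3), or 0.17 with the N3 DNA. Its difference from chimpanzee was 0.22 with a barcode SE of 0.079, and it did not pass the barcode test (adjusted p = 0.543). The lowest, TaTaGgAgG, was at -0.18, -0.28 and -0.19, a mean of -0.22 ± 0.054, below all cultures of the chimpanzee sequence. Its difference from the chimpanzee sequence was -0.32 ± 0.021 (edgeR adjusted p = 1.31e-14, barcode adjusted p = 0.0336). Over the N3 DNA it was at -0.067, and its difference was -0.12 with an edgeR adjusted p of 0.0602. The call was lost without culture 1, 2 or 3, at -0.33, -0.31 and -0.33, and without the strongest barcode of each element, at -0.29.

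This was the only variant called against its chimpanzee sequence, 1 of 768 differences tested (0.130%). These 768 include 8 human against chimpanzee pairs of HARE5 tiles, and the all-chimpanzee sequences were not tested against themselves. edgeR alone passed 286 (37.2%), 219 higher and 67 lower, while 48 had an unadjusted barcode p under 0.05. Over the N3 DNA, edgeR alone passed 35 (4.56%), 29 higher and 6 lower, and 6 had an unadjusted barcode p under 0.05. The median barcode SE of a difference was 0.077, so single variants are resolved only when they differ by several times that size. Of the 768 differences 520 were above 0, with a median of 0.036, or 0.016 with the N3 DNA. All variants of a HAR and tile are set against the same chimpanzee element, so their differences share its error.

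The other HARs gave no called difference between the all-human and the all-chimpanzee sequence. In 2xHAR.142 the chimpanzee sequence was at -0.12 ± 0.037 and the human sequence at -0.068 ± 0.011 (SD, n = 3), a difference of 0.052 with a barcode SE of 0.081, or 0.040 with the N3 DNA. The chimpanzee sequence was called lower than the median of the negative controls with both denominators, but not without culture 2, at -0.11. The highest variant, GTgtata, was at 0.069 with the N2 DNA and -0.080 with the N3 DNA. The lowest, GcgCGta, was at -0.21 and -0.15, called lower with both.

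In 2xHAR.238 both ends were active. The chimpanzee sequence was at 0.18, 0.21 and 0.23, a mean of 0.21 ± 0.021 (SD, n = 3), and the human sequence at 0.18, 0.28 and 0.27, a mean of 0.24 ± 0.056. They overlap, with a difference of 0.038 and a barcode SE of 0.087, or 0.055 with the N3 DNA. Both were called higher with either denominator, at 0.11 and 0.17 with the N3 DNA. As medians over barcodes they were at 0.19 and 0.14. The highest variant, agaaT, has 1 human base. It was at 0.29, 0.33 and 0.29, or 0.20 with the N3 DNA and 0.13 as a median over barcodes. It was 0.10 above the chimpanzee sequence with a barcode SE of 0.088 and was not called different. The lowest variant, GgGGc, was at 0.031. In the HAR and HAR control libraries their order was the other way, with agaaT at 0.10 and 0.18 and GgGGc at 0.21 and 0.44. In 2xHAR.170 the human sequence was 0.10 above the chimpanzee sequence, with a barcode SE of 0.12, or 0.0068 with the N3 DNA. The difference in 2xHAR.164 was -0.034 and that in HAR34 -0.057, and both had the other sign with the N3 DNA, at 0.011 and 0.063.

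Averaged over the states of the other sites, single bases moved activity by a few percent. For each HAR a least-squares fit of activity on the state of its sites was made per culture, and a site was called where limma over cultures and the barcode error both passed. Of 41 sites, 10 (24.4%) were called with the N2 DNA and 6 (14.6%) with the N3 DNA, 8 and 5 of these in 2xHAR.1 and the others in 2xHAR.142. Without culture 1 or culture 2 the count of called sites was again 10. Without culture 3 none of these sites was called, with limma adjusted p-values of 0.0869 to 0.141 and effects of -0.044 to 0.067, in the same directions. The other HARs have 8 to 32 variants, too few to average the barcode error to this size.

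In 2xHAR.1, 4 sites kept their direction with either DNA. The human base of G95C raised activity by 0.033, 0.059 and 0.054 in the 3 cultures, a mean of 0.049 ± 0.014 (SD, n = 3), or 3.43%, and by 0.015 with the N3 DNA. That of G117C raised it by 0.026, 0.042 and 0.042, a mean of 0.037 ± 0.0092, or 2.57%, and by 0.025 with the N3 DNA. That of C119G had effects of -0.022, -0.023 and -0.030, a mean of -0.025 ± 0.0043, and -0.024 with the N3 DNA. That of A94G had effects of -0.024, -0.031 and -0.028, a mean of -0.027 ± 0.0036, and -0.012 with the N3 DNA. These are averages over the states of the other sites, and those of A94G and G95C depended on each other, as given for the 4 states of that pair.

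The largest site effect depended on the DNA. The human base of A88T raised activity by 0.041, 0.094 and 0.054, a mean of 0.063 ± 0.028 (SD, n = 3), or 4.43%. Its effect was -0.011 over the N3 DNA, also called. The state of that site moved the ratio of N2 DNA to N3 DNA itself by -0.074, which is larger than its effect on activity. The effect of C55T went from -0.041 to 0.0096, that of G33T from -0.024 to 0.0032, and that of A36T from 0.027 to -0.0019. In 2xHAR.142, C91T went from 0.036 to -0.024 and T134C from -0.032 to 0.0033. Only A88T and C91T were called in the other direction with the N3 DNA, and the other 4 were not called with it. What links the N2 DNA to the state of these sites was not tested.

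**Figure D3:**
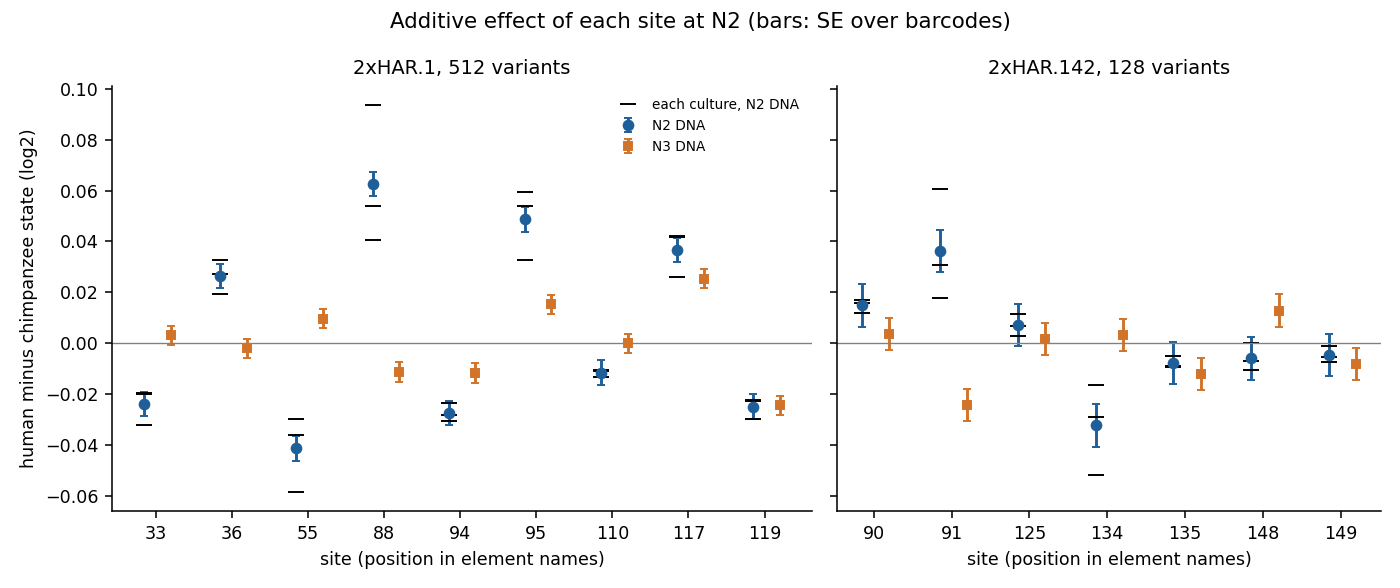
Effect of the human base at each site of 2xHAR.1 (left) and 2xHAR.142 (right) on log2 activity in the additive fit, with the N2 DNA (circles, with each culture as a dash) and the N3 DNA (squares). Bars are the SE over barcodes. Sites 94, 95, 117 and 119 of 2xHAR.1 lie on the same side of 0 with both, and site 88 goes from 0.063 to -0.011.

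With the N2 DNA, a sum of single sites left part of the variance of 2xHAR.1. The additive fit explained 40.8% of the variance among its 512 variants (adjusted for the number of terms), and a fit with all pairs of sites explained 55.9%. The barcode error amounted to 41.1% of that variance. The shares were 19.1% and 20.9% over the N3 DNA, beside a barcode error of 79.9%. In 2xHAR.142 the additive fit explained 21.0% and the pairs 15.3%, beside a barcode error of 81.5%.

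Of 87 pairs of sites in the HARs with at least 5 sites, 6 (6.90%) passed the barcode test with 1 sign in all cultures, all in 2xHAR.1. None of the 87 (0%) passed over the N3 DNA, where 0 had an adjusted p under 0.05. The largest was A94G with G95C, an interaction of 0.078, 0.12 and 0.093 in the 3 cultures, a mean of 0.096 ± 0.020 (SD, n = 3) with a barcode SE of 0.0097. Over the N3 DNA it was 0.022 (barcode adjusted p = 0.281). Of the other 5 pairs, 4 involved A88T, with interactions of -0.041 to 0.040, and the fifth, C55T with A94G, was at -0.029.

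The neighbouring sites 94 and 95 give 4 states, each carried by 128 variants of 2xHAR.1. The chimpanzee pair, ag, had a mean activity of 0.14, 0.15 and 0.15 in the 3 cultures, 0.15 ± 0.0073 (SD, n = 3), and 87 of its variants were called higher. The pair aC was at 0.15 ± 0.014 with 86 called higher, and the human pair, GC, at 0.17 ± 0.018 with 94. The mixed pair Gg was at 0.075, 0.060 and 0.077, a mean of 0.071 ± 0.0097, below every culture of the other 3 states. Of its variants 37 (28.9%) were called higher and 5 lower. The shares called higher were 38.3% over all elements and 59.4% over 2xHAR.1. Over the N3 DNA the order of Gg below the others held at a smaller distance, at 0.080, 0.084, 0.057 and 0.084 for ag, aC, Gg and GC. There 52, 55, 28 and 56 variants were called higher. These are 40.6%, 43.0%, 21.9% and 43.8%, beside 24.4% over all elements and 37.3% over 2xHAR.1. The N2 DNA over the N3 DNA of these states was at -0.053, -0.050, -0.00031 and -0.071, so it too set Gg apart.

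**Figure D4:**
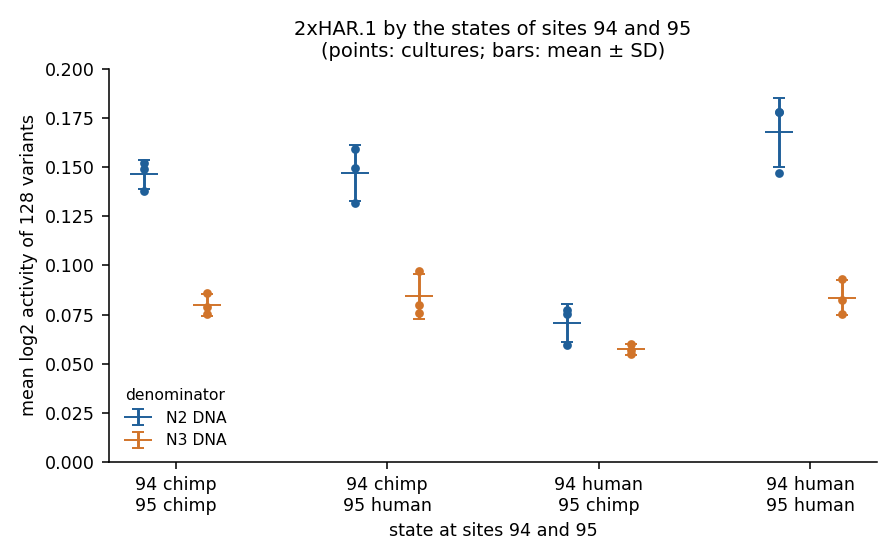
Mean log2 activity of the 128 variants of 2xHAR.1 in each state of sites 94 and 95, with the N2 DNA and the N3 DNA. Points are the 3 cultures and bars their mean and SD. The human-chimpanzee state has a mean of 0.071 with the N2 DNA and 0.057 with the N3 DNA, and the other 3 states lie between 0.15 and 0.17 and between 0.080 and 0.084.

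2xHAR.65 is present on 2 tiles that start 1 base apart, which gives a measure of error over separate barcodes. Over 32 variants the tiles correlated at r = 0.127, or 0.149 with the N3 DNA. The first tile was 0.028 above the second on average, by 0.025, 0.026 and 0.032 in the 3 cultures, and was higher in 23 of 32 variants. The SD of the difference was 0.055, below the median barcode SE of 0.065, and 1 of 32 differences lay outside its 95% barcode interval. The mean difference was 0.013 over the N3 DNA. The human minus chimpanzee difference was -0.063 on the first tile and 0.018 on the second, or -0.028 and -0.0059 with the N3 DNA.

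HARE5 gave little activity in these cells. Its 8 tiles cover 1219 bases (chr10:36238121-36239339), each of 171 bases and in a human and a chimpanzee version. Both versions of tile 2 and the chimpanzee version of tile 3 are marked as changed for EcoRI, a restriction enzyme. The human version of tile 3 is not, so the versions of tile 3 differ in this too. The median over the 16 elements was 0.026 with the N2 DNA and 0.0028 with the N3 DNA, with a range of -0.10 to 0.15. Only human tile 4 was called higher, at 0.14 ± 0.023 (SD, n = 3), and only human tile 2 lower, at -0.10 ± 0.023. Neither was called with the N3 DNA, at 0.076 and -0.016. Their medians over barcodes were 0.064 and 0.023. Human tile 2 lost its call without culture 3, at -0.10, and without its strongest barcode, at -0.090. Of the 16 tiles 1 (6.25%) was called higher, beside 38.3% over all elements and 10.0% of the negative controls. Of the 402 elements behind the 38.3%, 304 were 2xHAR.1 variants. With the N3 DNA 2 tiles (12.5%) were called higher, beside 24.4% over all elements and 10.8% of the negative controls.

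The highest tile, chimpanzee tile 1, was at 0.096, 0.12 and 0.22, a mean of 0.15 ± 0.068 (SD, n = 3), but was not called (barcode adjusted p = 0.250). It lay at 0.0060 with the N3 DNA. Over that DNA the calls were chimpanzee tiles 2 and 6 higher, at 0.086 and 0.17, and chimpanzee tile 8 lower, at -0.084.

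The human and chimpanzee versions of the tiles were not called different in any of 8 pairs. Human tile 4 was 0.11 ± 0.075 above its chimpanzee version (SD over 3 cultures), and human tile 2 was at -0.098 ± 0.024 from its own. The z test over barcodes gave an unadjusted p of 0.154 and 0.0918. With the N3 DNA the difference of tile 2 was -0.10 and that of tile 6 was -0.12, each with an unadjusted barcode p of 0.019. These pairs share the direction human below chimpanzee, and they did not pass the adjustment over all 768 differences.

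**Figure D5:**
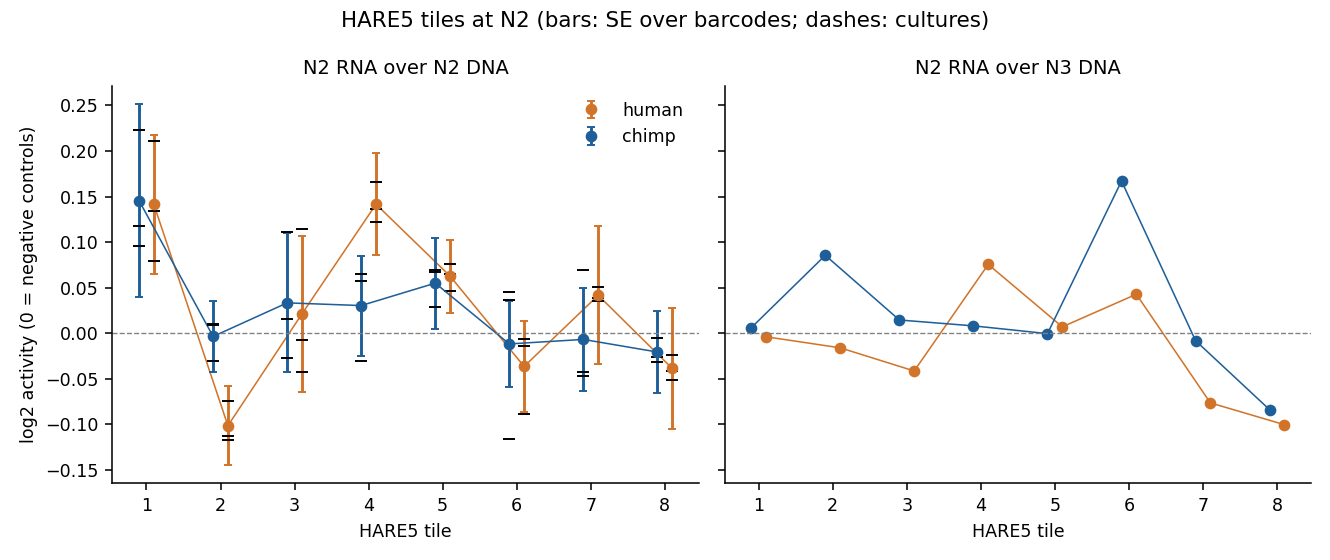
Log2 activity of the 8 HARE5 tiles in their human and chimpanzee version, with the N2 DNA on the left and the N3 DNA on the right, as the mean of 3 cultures. Bars on the left are the SE over barcodes and dashes the cultures. With the N2 DNA the tiles lie between -0.10 and 0.15 around 0, the median of the negative controls.

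Set against N3, each stage over its own DNA and the TMM centre as 0, 82 elements (7.82%) were called higher at N2 and 178 (17.0%) lower by edgeR. With the negative controls as 0 in both stages the counts were 346 higher and 61 lower, so the balance between directions depended on the zero point. For 426 elements (40.6%) every N2 culture lay on 1 side of every N3 culture. Without culture 3 the counts were 48 higher and 89 lower. With the N3 DNA in place of the N2 DNA, the DNA cancels and N2 RNA is set against N3 RNA alone. In that comparison 73 of the 82 and 178 calls stood in the same direction and 105 changed sign. H3K27ac positive control 104 differed most among those higher at N2, at 0.38, 0.48 and 0.49 against 0.021, -0.0028 and 0.011 at N3, a difference of 0.44, or 0.42 with the N3 DNA. H3K27ac positive control 107 differed by 0.21, or 0.17 with the N3 DNA. In 2xHAR.1, 53 variants were higher and 51 lower at N2, of which 9 stood in the same direction with the N3 DNA and 47 changed sign.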

How the data were processed

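Barcode counts were deposited per sample by the authors. Each file lists element and barcode names with a whole-number count. The labels' protocols describe a molecular identifier of 10 bases, but no source used here says whether the counts are identifiers or reads. No source used here names the aligner or the rule that tied barcodes to elements. The labels give DNA more second-round PCR cycles than RNA. Element names hold coordinates that the submitters' processing notes place in GRCh37 (hg19). The counts were summed over barcodes per element, and no element was removed by the minimum of 10 barcodes per DNA library.

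The 6 samples were fitted with the 6 of the permutation library at N3 in edgeR 4.0.16 (R 4.3.3, quasi-likelihood, TMM), and site effects were tested with limma 3.58.1. The barcode error was a delta-method SE of the log2 ratio of summed counts, used in a two-sided z test. Values per culture used a pseudocount of 0.5 and site effects 1. With the N2 DNA, the DNA of the same replicate number was the denominator. With the N3 DNA, values per culture used the mean of the 3 N3 DNA samples, and site effects the N3 DNA of the same number. p-values were adjusted by Benjamini-Hochberg over all 1049 elements, 768 differences from chimpanzee (HAR variants and HARE5 tiles) or 41 sites. They measure the spread between 3 infections of 1 line and between barcodes. The scripts were checked on simulated data.

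The labels call the 3 cultures independent and extract DNA and RNA together. Deviations of RNA and DNA with the same number correlated at 0.103, 0.040 and -0.031, so the fit has no replicate block. Elements named are the 10 highest and 6 lowest called with 1 sign in all cultures (at most 2 per HAR or locus), the all-human, all-chimpanzee, highest and lowest variant of each HAR, called variants and sites, the highest and lowest HARE5 tile, the 3 highest of each control class, the 4 largest calls per direction against N3, and the extreme barcodes of the highest element. Members and lists were chosen with earlier results of these data known. Alternatives were the other DNA, DESeq2 1.42.0, other zero points and filters, a replicate block, the median over barcodes, and leaving out a culture or the strongest barcode. The element sequences were not used here.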

Additional observations from a re-analysis of the deposited data

Results flagged for a closer look

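Activity at N2 and at N3 differed by edgeR's test of the difference (adjusted p under 0.05, cultures of the stages not overlapping) for 8 named elements. H3K27ac positive control 104 was higher at N2 by 0.44 on the log2 scale (edgeR adjusted p = 1.32e-05), ENCODE negative control 8 by 0.22, H3K27ac positive control 113 by 0.22 and H3K27ac positive control 107 by 0.21. With the N3 DNA in place of the N2 DNA, which leaves N2 RNA against N3 RNA, these 4 were at 0.42, 0.26, 0.11 and 0.17, all called. N1_K27Me3 negative control 24 differed by -0.59, ENCODE negative control 26 by -0.59, H3K27ac positive control 6 by -0.58 and AP_K27Me3 negative control 12 by -0.52. With the N3 DNA these 4 were at 0.34, 0.23, 0.16 and 0.10, the opposite sign, and none was called. Without culture 3, N1_K27Me3 negative control 24 was at -0.66 and just missed the threshold (edgeR adjusted p = 0.0505).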

How the results depend on the processing

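Of 898 comparisons of a named element, variant, site or pair with an alternative, 759 kept direction and side of the threshold, or stayed within 1 SD where no test applied. In 44 the sign changed, 23 of them with the N3 DNA and 10 against the TMM centre. As a median over barcodes, 25 of 61 named elements moved by more than 1 SD over cultures. With that median 1 called element changed sign and 35 of the 61 stayed within 1 SD. Elements called higher (402) became 256 with the N3 DNA, 84 against the TMM centre, 651 with edgeR alone and 193 with both DNAs. Those called lower (95) became 219 against the TMM centre, 184 with edgeR alone and 36 with both DNAs. The 1 called difference from chimpanzee, among HAR variants and HARE5 tiles, became 0 without any 1 culture (0 to 0), without the strongest barcode and with the N3 DNA. It became 286 with edgeR alone, whose own count became 35 with the N3 DNA and 189 in the 6 libraries. Calls against N3 (82 higher, 178 lower) became 346 and 61 with the negative controls as zero, 125 higher with DESeq2, and 48 to 84 and 89 to 233 with a culture left out. Called sites (10) became 6 with the N3 DNA, 25 with limma alone and 0 to 10 with a culture left out. The variance left after the sites went from 59.2% to 44.1% in 2xHAR.1 and from 79.0% to 84.7% in 2xHAR.142 once pairs were added. The 2 called HARE5 tiles became 4 against the TMM centre and 1 to 2 with a culture left out.

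Class medians with the N3 DNA were 0.077 (2xHAR.1), -0.11 (2xHAR.142), -0.080 (2xHAR.164), 0.033 (2xHAR.170), 0.070 (2xHAR.238), -0.069 and -0.074 (2xHAR.65), -0.026 (HAR34), 0.0028 (HARE5) and 0.042 (H3K27ac). Against the TMM centre they were 0.049, -0.16, -0.056, 0.073, 0.055, 0.0088, -0.027, -0.024, -0.068 and -0.075 in the same order. Elements called with at least 1 DNA whose sign changed with the N3 DNA, as fitted by edgeR, were 2xHAR.65 variant 24 tile 2 (-0.041), 2xHAR.65 variant 32 tile 1 (-0.11), ENCODE_pos_ctrl5 (0.0068), ENHANCERFINDER_POSITIVE_CONTROL 9 (0.053) and N1_N2_AP_K27ac_POSITIVE_CONTROL 101 (0.085). So were C91T (-0.024), T134C (0.0033), G33T (0.0032), A36T (-0.0019), C55T (0.0096) and A88T (-0.011), and the N2 against N3 values of N1_K27Me3_NEGATIVE_CONTROL 24 (0.34), ENCODE_NEGATIVE_CONTROL 26 (0.23), N1_N2_AP_K27ac_POSITIVE_CONTROL 6 (0.16) and AP_K27Me3_NEGATIVE_CONTROL 12 (0.10). Elements called with neither DNA that changed sign with the N3 DNA were 2xHAR.142 variant 97 (-0.075), 2xHAR.164 variants 1 (-0.090) and 16 (-0.080), 2xHAR.65 variant 1 tiles 1 (-0.082) and 2 (-0.057), 2xHAR.65 variant 32 tile 2 (-0.063), ENCODE_neg_ctrl42 (0.034) and ENHANCERFINDER_POSITIVE_CONTROL 8 (-0.011). Those that did so against the TMM centre were 2xHAR.142 variant 97 (-0.024), 2xHAR.164 variants 1 (-0.052) and 16 (-0.087), 2xHAR.170 variants 1 (-0.0039) and 7 (-0.0071), 2xHAR.238 variant 23 (-0.063), 2xHAR.65 variant 1 tile 2 (-0.047), 2xHAR.65 variant 32 tiles 1 (-0.049) and 2 (-0.029) and brain_vista_pos_ctrl10 (-0.0017). With a culture left out, uncalled values near 0 spanned it in 2xHAR.164 variants 13 (-0.030 to 0.019) and 16 (-0.027 to 0.028), 2xHAR.65 variant 12 tile 1 (-0.059 to 0.033), variant 19 tile 2 (-0.046 to 0.032) and variant 32 tile 1 (-0.0020 to 0.083), and HAR34 variant 1 (-0.022 to 0.0044). Without the strongest barcode 2xHAR.164 variant 13 (0.011), 2xHAR.65 variant 19 tile 2 (0.024) and HAR34 variant 1 (0.027) changed sign, and HARE5 tile 2 human did so as a median over barcodes (0.023). The cause of these changes was not tested.

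With the replicate block, 62 elements were called higher and 157 lower at N2 than at N3 and edgeR alone passed 337 differences from chimpanzee. The calls by both DNAs together, the pairs of sites and the comparison of the 2xHAR.65 tiles were chosen after seeing the data. No element had low counts, but whether these are identifiers or reads is not known. The spread between barcodes gave a median SE of 0.077 for a difference from chimpanzee.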
